A study of Drosophila melanogaster with 4 samples.

Results

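The blood cell genes are 10 genes of Drosophila melanogaster known for their use in hemocytes, and they are Hml, Pxn, vkg, Col4a1, srp, ush, NimC1, eater, crq and PPO2. They were taken from a fixed list of names, each with 100 kb on both sides, and all 10 were found among the 11749 protein-coding genes of the autosomes (13945 with chromosome X). The contact maps come from in situ Hi-C, in which DNA ends that lie together in fixed nuclei are cut with DpnII, joined and sequenced in pairs. They compare BG3, a line grown from nervous tissue of male larvae, with Kc167, a line grown from embryos that is female and resembles blood cells, and neither was treated. Each line had 2 biological replicates, which the authors merged, so that every value below belongs to 1 map per line. No spread between replicates can be had from merged maps, and the differences between BG3 and Kc167 given here were not tested.

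Hemocytes are the blood cells of the fly. Plasmatocytes engulf microbes and dying cells and lay down much of the basement membrane, crystal cells carry the prophenoloxidases of melanisation, and the GATA factor Srp sets up the lineage. Contact maps hold no RNA level, so the blood-like character of Kc167 could not be checked against markers in these data.

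A TAD (topologically associating domain) is a stretch of chromosome whose parts contact each other more than they contact the neighbours, and a border is the position where it ends. Borders found again with the stringent setting are called strong and the rest weak. A border is conserved where the other map has one within 20 bp, specific where the other map has none within 2 kb, and fuzzy in between. Borders were placed at the middle of DpnII fragments, to within 3 bp for 72 of the 76 borders in the windows around the blood cell genes. These fragments had a median of 1024 bp and ran from 129 to 4792 bp, so that a distance shorter than the fragment is not resolved.

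Stretches of sequence at borders of these genes are shown because the results below turn on them. In the Rtnl1 and Tsp68C fragments, which are printed from cut site to cut site, the capitals mark the DpnII site GATC. In the Pxn stretch, read on the strand of the gene up to the base before its 5' end, the capitals mark the 81 bases between the border and the gene. The stretch between crq and ush is centred on their shared border and holds no cut site. All are dm6 sequence from RefSeq.
Rtnl1 intron, chr2L:5001572-5001834, plus strand, at the left border of the Kc167 TAD of vkg and Col4a1: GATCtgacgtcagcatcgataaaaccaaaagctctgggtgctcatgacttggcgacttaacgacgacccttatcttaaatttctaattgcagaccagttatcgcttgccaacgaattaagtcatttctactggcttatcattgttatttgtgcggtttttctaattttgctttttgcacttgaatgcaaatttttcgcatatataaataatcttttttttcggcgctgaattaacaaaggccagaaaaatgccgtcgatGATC
Tsp68C coding exon, chr3L:13844105-13844355, plus strand, at the left border of the Kc167 TAD of Hml: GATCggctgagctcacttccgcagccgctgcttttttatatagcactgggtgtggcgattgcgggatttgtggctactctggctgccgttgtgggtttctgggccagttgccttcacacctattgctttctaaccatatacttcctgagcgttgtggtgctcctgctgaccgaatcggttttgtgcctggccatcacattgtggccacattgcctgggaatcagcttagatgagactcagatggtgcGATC
Between CG4297 and MED15, chr2L:472277-472476, plus strand, at the border between the TADs of crq and ush: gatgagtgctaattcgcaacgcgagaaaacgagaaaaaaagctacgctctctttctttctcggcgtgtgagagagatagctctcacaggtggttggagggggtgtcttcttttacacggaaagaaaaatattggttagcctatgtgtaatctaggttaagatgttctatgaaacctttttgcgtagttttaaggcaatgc
Upstream of Pxn in an exon of lncRNA:CR45660, chr3L:2630065-2630264, minus strand, at the BG3 border by the Pxn start: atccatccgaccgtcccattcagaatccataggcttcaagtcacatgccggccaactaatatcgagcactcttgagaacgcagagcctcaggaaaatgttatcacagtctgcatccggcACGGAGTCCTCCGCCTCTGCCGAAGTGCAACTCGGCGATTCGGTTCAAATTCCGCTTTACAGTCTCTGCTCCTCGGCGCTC

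Short motifs were counted on both strands in the 200 bp centred on each border of 2L, 3L, 3R and chromosome 4. Matches in the printed stretches but outside these 200 bp were not counted, such as a CGATAA near the left end of the Rtnl1 fragment. The letters GAGAG, bound by GAGA factor, occurred 4 times around the border of crq and ush, and 19.1% of the 2644 border positions held at least 1. GATAA, the core bound by GATA factors such as Srp, occurred 3 times around the Rtnl1 border, 1 time around the Pxn border and not around the other 2, against 35.6% of all borders. CGATA, part of the site of BEAF-32 and overlapping GATAA in CGATAA, occurred 1 time each at the Rtnl1 and Pxn borders, against 25.0% of all borders. GGTCACAC, the M1BP motif, was at none of the 4, against 2.38% of all borders. A match of letters is no evidence that a factor binds there.

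The matrix genes lay in TADs that differed between the maps. Pxn encodes peroxidasin, a secreted enzyme that crosslinks collagen IV, and spans 28.6 kb of the minus strand (3L:2601455-2630064). In BG3 the TAD around it ran from 2601252 to 2630145, a width of 28.9 kb, with strong borders on both sides, and Pxn made up 99.0% of it and was the only protein-coding gene to start there. The border by the 5' end lay 81 bp upstream, and both lie in 1 DpnII fragment of 2055 bp, so that border and gene start are not resolved from each other. In Kc167 the TAD ran from 2599298 to 2636015, a width of 36.7 kb between weak borders, and also held the starts of CG12182, CG16986, MEP-1 and CG42245. The nearest Kc167 border was 5951 bp from the Pxn start and lay in introns of MEP-1 and CG42245. At the stringent setting the TAD that held the Pxn start kept its 28.9 kb in BG3, and it was 178 kb wide in Kc167.

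vkg and Col4a1 encode the pair of collagen IV chains of basement membranes and start head to head on 2L, vkg on the minus strand (2L:5012144-5028191) and Col4a1 on the plus strand (2L:5029609-5037279). They shared a TAD in both maps. In BG3 it was 194 kb wide and held the starts of 40 protein-coding genes, and in Kc167 it was 41.3 kb wide and held 8, which are Rtnl1, CG31917, Tfb5, SelT, vkg, Col4a1, CG14042 and SP555. The right border at 5043039 was the same base in both maps, strong in both, and lay in the 5' UTR of CG31650, 231 bp from the start of CG33995. The left border in Kc167, at 5001702 in the Rtnl1 fragment printed above, was weak and had no BG3 border within 41337 bp. At the stringent setting, which drops the Rtnl1 border, the TADs were 231 kb wide in BG3 and 195 kb in Kc167. No loop had an anchor at either gene in either map.

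**Figure D1:**
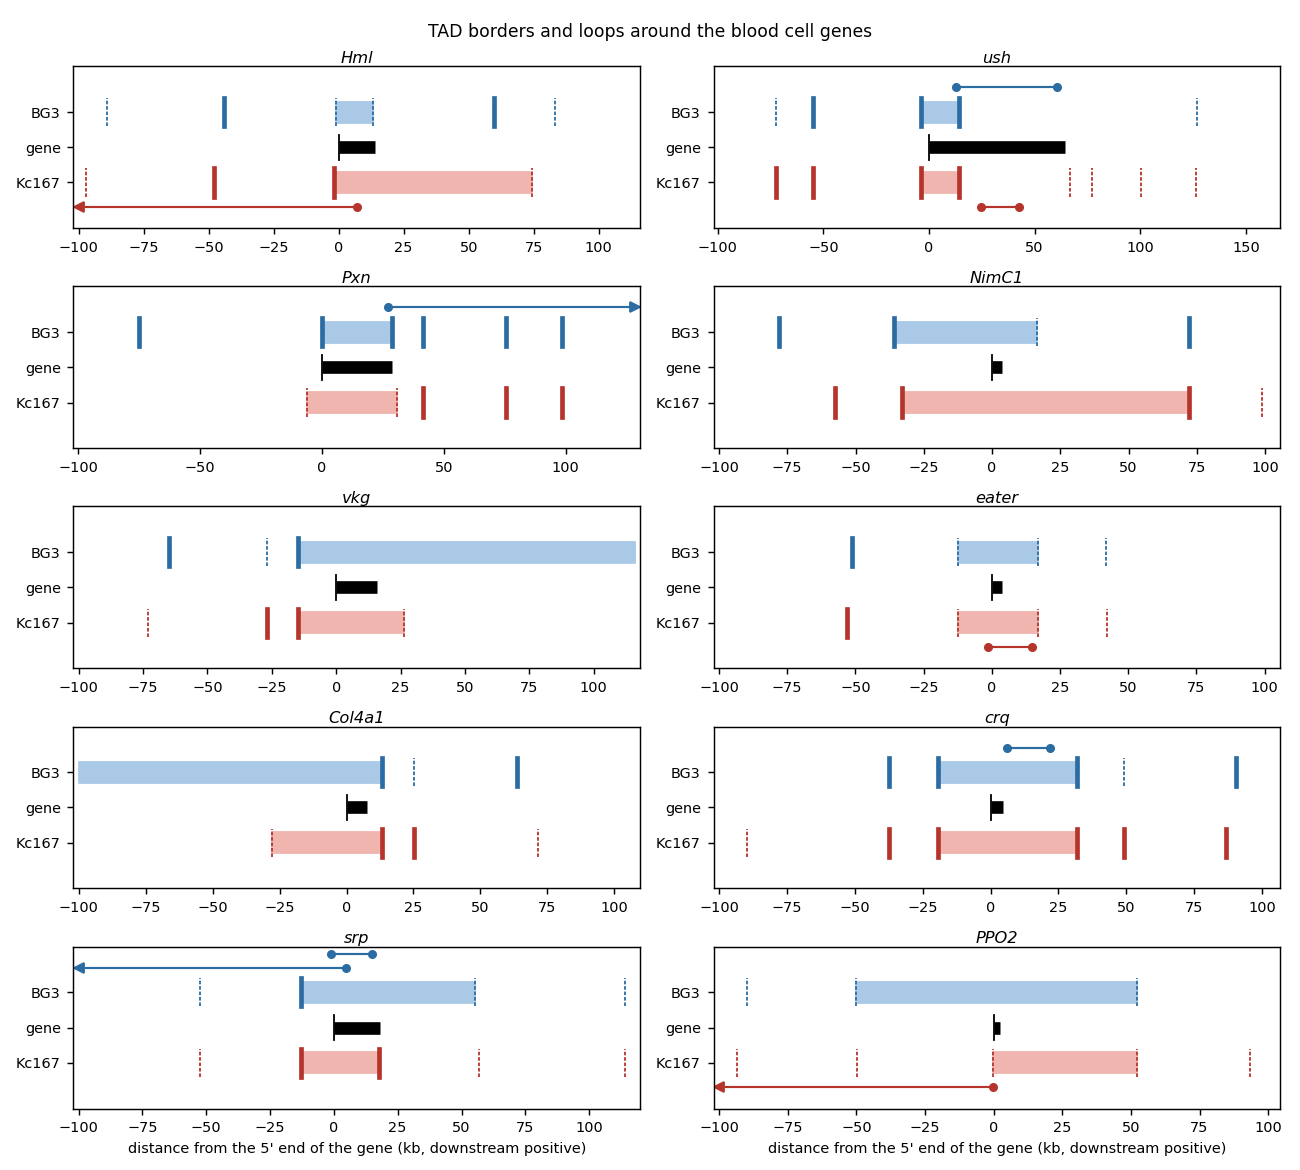
TAD borders and loops around the 10 blood cell genes in BG3 (blue, upper) and Kc167 (red, lower). The x axis is the distance from the 5' end in kb with downstream positive, thick lines are strong borders, thin dashed lines weak borders, shaded bars the TAD that holds the 5' end (cut off at the window edge), dots joined by lines loops anchored at the gene, and arrowheads loops that leave the window. The BG3 TAD of Pxn matches the black gene bar, and crq, ush and eater have the same shaded TAD in both maps.

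Hml encodes hemolectin, a large clotting protein used as a marker of plasmatocytes (3L:13846054-13860001, plus strand, 13.9 kb). In BG3 a TAD of 14.1 kb, from 13845120 to 13859222, covered 94.4% of the gene, and its right border lay in a coding exon of Hml, 779 bp inside the 3' end. Both borders were weak, and at the stringent setting Hml sat in a TAD of 104 kb. In Kc167 the TAD was 76.3 kb wide, from a strong border at 13844229 to a weak one at 13920570, and also held the starts of CG8745, CG13737 and dysc. The left borders of the maps were 891 bp apart. They belong to neighbouring DpnII fragments, of 1534 bp in BG3 and 247 bp in Kc167, and the shorter is the Tsp68C fragment printed above.

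Pxn and Hml were thus 2 of the 10 genes whose BG3 TAD ended within 1 kb of the gene on both sides, against 14 genes or 0.119% of all autosomal genes. None of the 10 had such a TAD in Kc167, where 21 genes or 0.179% did. This measure was chosen after the values of Pxn and Hml had been seen, so these counts describe the 2 genes and are no support for a pattern. All 14 BG3 genes were among the 1599 genes of 10 kb or longer. Within 500 bp on both sides, Pxn remained and Hml did not, and 7 genes passed in each map.

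The regulators differed from each other. srp encodes the GATA factor Serpent (3R:15986152-16004085, plus strand). Its TAD began at the same base in both maps, 15973173, a strong border 125 bp from the start of the helicase gene Hel89B. The TAD separation score, which is lower where fewer contacts cross a border and is comparable within a map only, was -0.3155 there in BG3 and -0.4164 in Kc167, at or below which lay 3.26% and 1.93% of the borders of each map. The BG3 TAD was 68.1 kb wide and held the starts of Hel89B, srp, GATAe and pnr, of which the last 3 encode GATA factors. The Kc167 TAD was 30.7 kb wide and held Hel89B and srp. It ended at a strong border at 16003836, in the 3' UTR of srp and 249 bp before the end of the gene, 30663 bp from any BG3 border. The DpnII fragment of that border is 1014 bp long and reaches past the end of srp. GATAe and pnr then shared a TAD of 39.3 kb in Kc167, and a loop joined them in both maps, with 87 observed contacts and a ratio of 3.21 in BG3 and 209 contacts and 2.63 in Kc167.

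ush encodes U-shaped, a zinc finger cofactor of GATA factors, and with 64.3 kb it is the longest of the 10 genes (2L:476220-540560, plus strand). The TAD that holds its 5' end ran from 472376 to 490264 in both maps, 17.9 kb between strong borders, and held 21.8% of the gene. The border at 490264 lay inside ush, in a 5' UTR exon and 571 bp before the start of a further transcript at 490835, and was conserved and strong. Kc167 had 3 weak borders beyond the gene that BG3 lacked, at 542765, 553609 and 576397, by the starts of lwr, Ets21C and Ptth. In BG3 no border was called between 490264 and 603064.

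The starts of the 3 phagocytosis receptors lay between 12424 and 33021 bp from the nearest border. crq encodes croquemort, a CD36-like receptor for dying cells (2L:448254-453024, minus strand), and its TAD from 421090 to 472376, 51.3 kb wide with 8 gene starts, was the same in both maps with strong borders. Its right border is the left border of the ush TAD, so that crq and ush lay in neighbouring TADs in both maps. eater encodes a receptor for bacteria (3R:27095867-27099679, minus strand), and its TAD from 27082797 to 27112103, 29.3 kb wide with 7 gene starts, was also the same, with weak borders. NimC1, a phagocytosis receptor of the Nimrod family (2L:13973158-13976769, minus strand), lay in a TAD that measured 52.7 kb in BG3 and 105 kb in Kc167. The BG3 TAD held 11 gene starts, among them NimB1 to NimB5 and NimC2 of the same family, and the Kc167 TAD held 21. The left end of the BG3 TAD, a weak border at 13960170 in an intron of NimA, was 49620 bp from the nearest Kc167 border, and at the stringent setting the TADs were 108 kb and 105 kb wide.

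PPO2 encodes a prophenoloxidase of crystal cells and lies on 2R (9042261-9044709, minus strand). The BG3 TAD around it was 102 kb wide with 16 gene starts, and the Kc167 TAD was 52.2 kb wide with 7. The Kc167 TAD ended 121 bp upstream of the PPO2 start, in the same DpnII fragment of 356 bp as the start, whereas the nearest BG3 border lay 50151 bp away. The Kc167 border was weak, with a score of 0.3275 that 88.5% of the Kc167 borders did not exceed, and with the stringent setting PPO2 lay in a TAD of 452 kb (BG3) or 621 kb (Kc167).

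**Figure D2:**
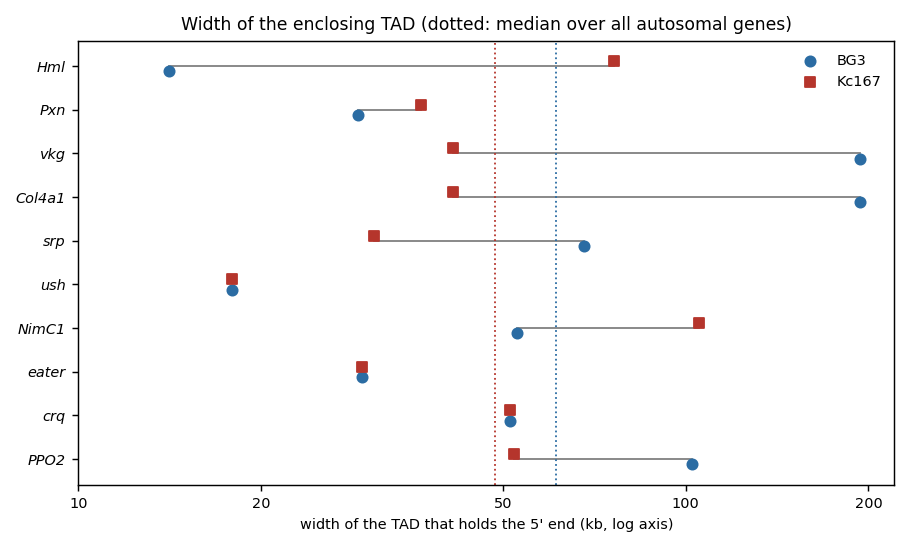
Width of the TAD that holds the 5' end of each blood cell gene, in kb on a log axis, in BG3 (circles) and Kc167 (squares), with dotted lines at the medians over all autosomal genes, 61.1 kb and 48.5 kb. Hml, Pxn and NimC1 had the wider TAD in Kc167, vkg, Col4a1, srp and PPO2 in BG3, and ush, eater and crq had the same width.

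Over the 10 genes the median width of the TAD was 52.0 kb in BG3 and 41.3 kb in Kc167, beside 61.1 and 48.5 kb over all autosomal genes. The TAD was kept, with both ends within 2 kb, for 3 of the 10 genes (ush, eater and crq), and for 21.9% of all autosomal genes. Taken by the middle of the gene in place of the 5' end it was kept for 2 (eater and crq), since most of ush lies beyond 490264, in a TAD that ended at 542765 in Kc167 and at 603064 in BG3. A BG3 border lay within 2 kb of the 5' end of 2 genes (Pxn and Hml), against 17.3% of all genes, and a Kc167 border within 2 kb of 2 (PPO2 and Hml), against 19.8%. The median distance to the nearest border was 13.2 kb in BG3 and 12.7 kb in Kc167 for the 10 genes, and 11.1 and 9.1 kb for all genes. A border lay inside the gene for ush and Hml in BG3 and for ush and srp in Kc167, 2 of 10 in each, against 8.70% and 9.81%. With a median of 10.8 kb the 10 genes are longer than all genes, whose median is 2.1 kb, and length was not adjusted for. These shares of 10 genes lie near the background or rest on 1 or 2 genes.

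**Figure D3:**
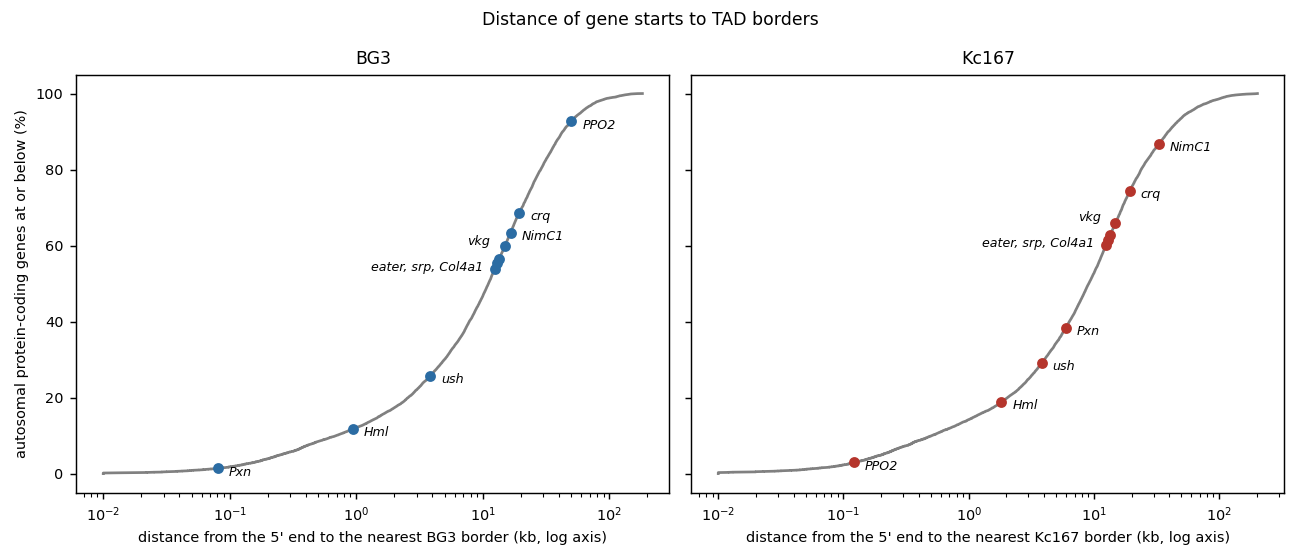
Distance from the 5' end to the nearest border in kb on a log axis, against the percentage of autosomal protein-coding genes at or below that distance (grey curve), with the 10 blood cell genes as dots, in BG3 (left) and Kc167 (right). Pxn stands at 81 bp in BG3 and 5951 bp in Kc167, PPO2 at 50151 bp and 121 bp, and 6 genes (vkg, Col4a1, srp, ush, eater and crq) at the same distance in both maps.

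The windows of 100 kb on both sides held 36 BG3 borders, of which 15 were conserved, 8 fuzzy and 13 specific, and 40 Kc167 borders, of which 15 were conserved, 8 fuzzy and 17 specific. Conserved borders were 41.7% of those of BG3 and 37.5% of those of Kc167, and over the autosomes they were 28.9% and 26.6%. Strong borders were 19 of the 36 (52.8%) in BG3 and 18 of the 40 (45.0%) in Kc167, beside 45.2% and 52.0% over the autosomes. Around ush, 4 of the 5 BG3 borders were conserved, and around Hml none of 6. The windows of crq and ush overlap, as do those of vkg and Col4a1, and shared borders were counted 1 time. In 3 of the 8 fuzzy pairs the borders lay in neighbouring DpnII fragments.

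Loops are pairs of 2 kb pixels with more contacts than their surroundings, here given by the observed contacts and by their ratio to the contacts expected from the donut around the pixel. In BG3, 5 loops had an anchor in or within 2 kb of 4 of the genes (Pxn, srp, ush and crq), against 16.3% of all autosomal genes. In Kc167, 4 loops did so for 4 genes (Hml, ush, eater and PPO2), against 21.8%. With a reach of 0 kb, 3 genes had a loop anchor in each map, and crq and eater no longer did. With a reach of 5 kb, 5 genes had one in each map. Those added were eater in BG3 and Pxn in Kc167, so that eater and Pxn then had one in both maps. The shares over all genes were computed for 2 kb only. The 10 genes are longer than all genes, and these shares were not adjusted for length. The intervals below are exact Poisson intervals at 95% and cover counting error in the observed contacts only.

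Of the BG3 loops, 1 ran from the first part of srp (anchor 15990001-15992000) over 516 kb to AdamTS-A, which encodes a secreted metalloprotease, with 65 observed and 17.5 expected contacts, a ratio of 3.71 (2.87 to 4.73). A second spanned 16 kb, from the pixel at 15984001-15986000 to a site inside srp, with 80 contacts and a ratio of 2.51 (1.99 to 3.13). Its first pixel lay upstream of srp, which starts at 15986152, and was also in or within 2 kb of Hel89B. Within ush a BG3 loop of 48 kb joined the pixels at 488001 and 536001, with 69 contacts and a ratio of 2.51 (1.95 to 3.17), and the first of these pixels ends beside the border at 490264. In Kc167 another loop within ush joined the pixels at 500001 and 518001, 18 kb apart, with 136 contacts and a ratio of 2.04 (1.72 to 2.42). No loop of the other map had both anchors within 10 kb of either ush loop. Loops with both anchors in or within 2 kb of 1 gene touched ush and srp in BG3, against 2.11% of all genes, and ush in Kc167, against 2.36%. These loops span 16 kb or more, and only a gene long enough to reach both anchors can be counted. The median length over all genes is 2.1 kb, and the background was not adjusted for length.

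The crq loop of BG3 was short, 16 kb between the pixels at 430001 and 446001, with 82 contacts and a ratio of 2.15 (1.71 to 2.67). Both pixels lay in or within 2 kb of ex, which encodes expanded of the Hippo pathway. The second pixel lay outside crq, within 2 kb of its 3' end, and its centre was nearer to ex than to crq. The eater loop of Kc167 joined a pixel upstream of eater to one by Cpr97Ea and CG14257, 16 kb away, with 73 contacts and a ratio of 2.09 (1.64 to 2.62). The first of these pixels lay outside eater and was also in or within 2 kb of Jhbp11 and CAH9. The eater loop was the only one of the 9 with a partner in the other map, 1 of 4 in Kc167 and 0 of 5 in BG3. Over all autosomal loops, 38.1% had a partner in BG3 and 26.1% in Kc167. Of all loops in the windows, 7 of 18 in BG3 and 7 of 25 in Kc167 had one. The partner of the eater loop was a BG3 loop of 16 kb between the pixels at 27090001 and 27106001 that itself did not touch eater.

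The other 3 loops were long. In Kc167 a site inside Hml was joined over 344 kb to Spt20 and Vps36, with 46 observed and 10.3 expected contacts, a ratio of 4.46 (3.26 to 5.95), rank 130 of the 1126 autosomal Kc167 loops. In BG3 the pixel at 2602001, at the 3' end of Pxn, was joined over 2018 kb to Kah and Ppm1, with 24 observed and 7.1 expected contacts, a ratio of 3.38 (2.17 to 5.03). It is 1 of 23 BG3 loops over 1 Mb, of which 17 lie on 3L. Whether loops over 1 Mb come from contacts along an intact chromosome, from a rearrangement in the line or from misplaced reads was not tested and cannot be read from these lists. A further BG3 loop in the Pxn window, of 2068 kb, joined the pixel at 2596001 to klar and CG34269 at 528001. It was not anchored at Pxn and had 144 contacts and a ratio of 5.26, both higher than for the Pxn loop. The near pixels of the 2 loops, at 2596001 and 2602001, lie within 10 kb of each other. Their far pixels, at 528001 and 584001, do not.

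The PPO2 loop of Kc167 spanned 5872 kb, from the pixel that holds the PPO2 start and its border to Kank. That pixel was also in or within 2 kb of CG13743 and Ance-4. The loop had 33 observed contacts and 0.198 expected, a ratio of 167 (115 to 234), which ranked 9 of 1126. The ratio rests on the small expected value. It is 1 of 25 Kc167 loops over 1 Mb, whose median expected value was 0.23 and median ratio 99.9, whereas the medians over all autosomal Kc167 loops were 27.2 and 2.45. A rearrangement in the line or misplaced reads were not tested here either, so the value is not shown to be a contact between PPO2 and Kank on an intact chromosome. By ratio, the eater and ush loops of Kc167 ranked 882 and 927 of 1126, below the median of 2.45. The BG3 loops ranked 196 (srp, 516 kb), 236 (Pxn), 431 (srp, 16 kb), 432 (ush) and 604 (crq) of 771. The median ratio of the autosomal BG3 loops was 2.63, and the 16 kb srp loop and the ush and crq loops lay below it.

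**Figure D4:**
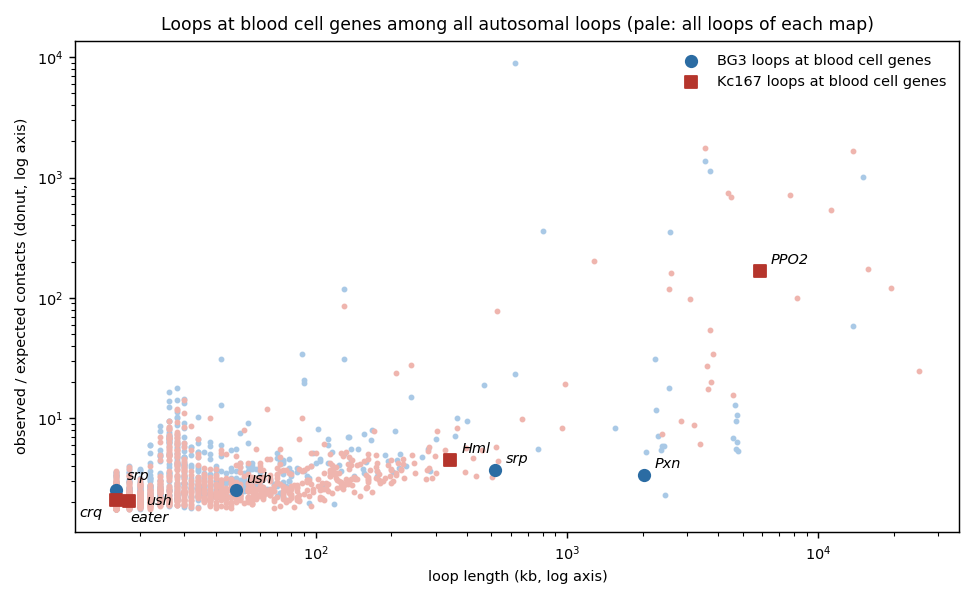
Loop length in kb against the ratio of observed to expected contacts, both on log axes, for all autosomal loops of BG3 (pale blue) and Kc167 (pale red), with the 5 BG3 loops (circles) and 4 Kc167 loops (squares) at blood cell genes named. All but that of PPO2, at 167, lie at ratios from 2.04 to 4.46.

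Other genes of blood cells were taken from 6 lists, of crystal cells, phagocytosis receptors, matrix, transcription factors, signalling, and clotting and lamellocyte genes. Of 89 names 88 were matched, 76 of them on the autosomes. A border lay within 2 kb of the 5' end of 19 of the 76 in each map (25.0%), against 17.3% of all autosomal genes in BG3 and 19.8% in Kc167. A border lay inside the gene for 16 in BG3 (21.1%, against 8.70%) and 11 in Kc167 (14.5%, against 9.81%). A loop anchor lay in or within 2 kb of 20 in BG3 (26.3%, against 16.3%) and 22 in Kc167 (28.9%, against 21.8%). The TAD was kept for 18 (23.7%, against 21.9%). These genes had a median length of 8.04 kb, beside 2.1 kb for all genes, and the shares were not adjusted for it. The median distance to a border was 9.09 kb in BG3 and 11.0 kb in Kc167, and the median TAD was 55.8 and 53.0 kb wide, beside 11.1 and 9.1 kb and 61.1 and 48.5 kb over all genes.

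Some of the 88 matched list genes had a border within 2 kb of the start in 1 map and none within 10 kb in the other. In Kc167 these were Rel, an NF-kappaB factor of the immune response (strong border at 120 bp, BG3 33942 bp), PGRP-LE, a peptidoglycan sensor (281 bp and 83565 bp), hop, the Janus kinase (257 bp and 13224 bp), and Adgf-A, an adenosine deaminase (1870 bp and 40736 bp). In BG3 they were dl, the NF-kappaB factor Dorsal (268 bp, Kc167 21781 bp), and htl, an FGF receptor (281 bp and 30883 bp). All of these Kc167 borders were strong, and both of these BG3 borders were weak. PGRP-LE and hop lie on X, and the lines differ in sex. The share of all genes that meet this rule was not computed, so the genes named are examples and no result about the lists. Over the autosomes, 46.3% of BG3 borders and 50.6% of Kc167 borders had no border of the other map within 2 kb.

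Among the loops of the lists, LanA, a laminin chain, was joined over 280 kb to the region of Bulli and Vps8 in both maps. The ratios were 5.56 in BG3, with 14 observed contacts, and 5.37 in Kc167, with 21. Pvf2 and Pvf3, ligands of the receptor Pvr, were joined to each other over 48 kb in BG3, with 40 contacts and a ratio of 2.83. Neither gene had a loop in Kc167. The htl loop of BG3 spanned 28 kb with 19 contacts and a ratio of 9.95. That of jumu, a forkhead factor, in Kc167 spanned 28 kb with 27 contacts and a ratio of 4.16. List loops were picked by their ratio, which can be high where few contacts are expected. The median observed contacts over all autosomal loops were 54 in BG3 and 65 in Kc167.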

How the data were processed

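Hi-C reads of both lines, with 2 biological replicates each, were aligned by the authors to dm6. Tools listed in the submitters' processing notes are BWA, version 0.7.15-r1140, and Juicer, version 1.7.6. The replicates were merged before TADs were called with HiCExplorer at DpnII fragments, and loops with HiCCUPS at 2 kb. By the methods, the BG3 map rests on fewer read pairs.

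The deposited TAD lists give a TAD separation score, which matched the left border of each TAD. The deposited loop lists give observed contact counts, the expected signal from the donut around each pixel and its q-value. The other 14 columns of expected contacts, q-values and merged pixels in those lists were not used.

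Gene positions were taken from Ensembl 115, and sequence from RefSeq dm6, with Python 3.11.15, pandas 2.3.3, SciPy 1.17.1 and Matplotlib 3.10.9. Scripts were tested on simulated data. Distances, counts and shares were computed with no test, since each line has 1 map. The members and lists were chosen with earlier results of these data known. All 10 genes were named, with genes starting within 5 kb of a border of their TADs, genes within 2 kb of far anchors, and list genes by their borders and loops, of which a selection is given. Chromosome X was left out of the background. Of the alternatives, 35 were fixed with the design and 2 were chosen after seeing the data, as was the measure they vary, TADs that end within 1 kb of both ends of a gene.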

Additional observations from a re-analysis of the deposited data

How the results depend on the processing

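Of 37 alternatives, 27 left a count within 1.5 times its main value. With stringent borders only, the genes with a border within 2 kb of the 5' end fell from 2 to 1 in BG3 (Pxn) and from 2 to 1 in Kc167 (Hml), and those with a BG3 border inside from 2 to 1 (ush). At 1 kb, 1 gene had a Kc167 border near its start (PPO2). Without 500 bp at each end of the gene, 1 held a Kc167 border (ush), so the call for srp rested on its last bases. Counting borders as specific beyond 10 kb left 5 in BG3 and 8 in Kc167, and windows of 50 kb left 6 and 9, which follows from the stricter rule and the smaller windows. Within 500 bp, an alternative to the measure of TADs that match a gene, both chosen after seeing the data, 1 gene had a BG3 TAD of its own length (Pxn). Without loops over 1 Mb, 3 genes kept a loop in each map.

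No paired analysis was possible because the replicates of each line were merged before borders and loops were called, and for the same reason leaving out each replicate was not run. The lists give no read depth, so a border or loop missing from a list is not shown to be absent from the cells.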
